A study of Homo sapiens with 12 samples.

Results

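Whole sorted cells were set against cell lysate of the human embryonic kidney line HEK293T, an adherent line that carries the SV40 large T antigen. Of the 12 libraries of the series 2 were compared, both chosen by their labels. One held 10 wells with 1 flow-sorted cell each and the other held 10 wells of HEK293T lysate, and both were made by LAST-seq with A60 RNA spike-ins. In LAST-seq a primer anneals to the poly-A tail of an mRNA, a T7 promoter is joined to the RNA, and T7 RNA polymerase amplifies the single-stranded template without a prior reverse transcription. The wells of a library carry indices, were pooled for amplification, and are counted in unique molecular identifiers (UMIs), so that copies of 1 starting molecule count once. The cells were neither treated nor genetically altered for this experiment as far as the labels say. The cells were sorted into lysis buffer with detergent, LAST-seq primer and an RNA carrier. How the lysate was made, how many cells gave it and how much of it entered a well are not given in the sources used here. Beside these libraries stand the LAST-seq single cells with the ERCC spike-in mix (called ERCC-mix cells) and wells with 15 pg of extracted HEK293T RNA, which were used to show where a difference was shared.

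A well with 1 cell carries the state of that cell, such as its size, its phase of the cell cycle and its recent bursts of transcription, whereas wells that receive portions of 1 mixed lysate differ by the sampling of molecules and by the handling of each well. Housekeeping transcripts such as those of ribosomal proteins and of the mitochondrial genome fill a large share of the mRNA of a dividing cell. Immediate-early genes, in contrast, are transcribed within minutes of a stimulus or of stress in handling, and their short-lived mRNAs decay soon after.

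Each condition is 1 library, so no test between cells and lysate was possible, and no p-value is given. The wells of a library describe that library and are not replicates of its condition. The single cells held 82596 to 190557 UMIs in genes, with a median of 142024, and the lysate wells held 62816 to 92944, with a median of 81709.5. Both libraries carried HEK293T markers. Of the 9 genes of that list 7 had a UMI in each library, though not the same 7, with 1008 UMIs in cells and 670 in lysate. PAX2 was at 0 in both, NEFM had 25 UMIs in lysate and none in cells, and KRT8 had 3 in cells and none in lysate. Most of the UMIs were of HMGA1 (389 in cells and 338 in lysate) and VIM (383 and 223). Of the 6 blood genes PTPRC alone had a UMI in cells and none had one in lysate, and GATA1, HBG1 and HBG2 were at 0. Fibroblast markers had 15 UMIs in cells and 5 in lysate, and hepatocyte markers 2 and 1. The spike-ins went against the label in the lysate. Its wells held 64 to 199 spike-in UMIs, against 4741 to 6655 in the cells of the same mix, so spike-in rows were removed and UMIs were scaled to the total of genes in each well. A level below is the number of UMIs per 100000 gene UMIs of a well. This scaling gives shares of the captured RNA, and less RNA in a well and fewer molecules captured cannot be told apart.

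More genes were seen in a cell than in a lysate well at an equal number of gene UMIs. Reads per UMI and the share of abundant genes were not matched. After each well was thinned to 62000 UMIs, 7946 to 8332 genes were detected in the single cells, with a median of 8186.5. The lysate wells gave 7611 to 7869 genes, with a median of 7688, and the ranges did not overlap. The medians differed by 498.5 genes. The ERCC-mix cells detected 8209 to 8713 genes and the RNA wells 8211 to 8482, also above the lysate. With all UMIs kept the counts were 8790 to 11342 in cells and 7890 to 8936 in lysate, which overlap.

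The gene classes that took up the UMIs differed. Protein-coding genes held 83.0% to 84.4% of the UMIs of a cell and 77.0% to 78.2% of those of a lysate well. Pseudogenes held 12.5% to 13.7% in cells and 18.1% to 19.1% in lysate. The ranges of the 10 wells did not overlap for either class. In the ERCC-mix cells pseudogenes held 11.9% to 12.6%, and in the RNA wells 13.4% to 14.1%, so the lysate held the largest pseudogene share of the 4 LAST-seq libraries. Pseudogene copies are near-identical to their parent genes, and the counting could split reads between them, so the class of a single read is uncertain.

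Mean levels were compared for the 8654 genes that averaged 1 UMI or more per well across both libraries, with 0.5 UMI added to each mean. Of these, 187 passed with a mean under 1 UMI in cells and 1802 with a mean under 1 UMI in lysate, since the cells were deeper. At 2-fold or more, 1529 genes (17.7%) were higher in cells and 544 (6.29%) were lower, and the median log2 ratio of all genes was 0.27. All 10 cells lay above all 10 lysate wells for 247 genes (2.85%), and all lay below for 120 (1.39%). For scale, 24.0% of these genes were past 2-fold between cells and lysate in either direction and 9.35% between the cells and the ERCC-mix cells. Between the cells and the RNA wells 14.3% were past it, and between the RNA wells and the lysate 21.4%. These comparisons share libraries and are set side by side as values.

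By gene type, protein-coding genes and processed pseudogenes stood on opposite sides of the median. Among 7668 protein-coding genes 1454 (19%) were past 2-fold higher in cells and 342 (4.46%) lower, with a median log2 ratio of 0.34. Among 581 processed pseudogenes, which are intronless copies of mRNAs put back into the genome, 8 (1.38%) were higher and 149 (25.6%) lower, with a median of -0.60. They held 6.25% of the UMIs of the cell library and 9.43% of those of the lysate. The 41 transcribed processed pseudogenes had a median log2 ratio of -0.38, with 3 higher and 13 lower. The 18 unprocessed pseudogenes had a median of -0.41, with 6.17% of the UMIs in cells and 8.25% in lysate. Among 226 long noncoding RNAs 42 (18.6%) were higher, close to the share of all genes, and 28 (12.4%) were lower, against 6.29% of all genes, with a median of 0.08.

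**Figure D1:**
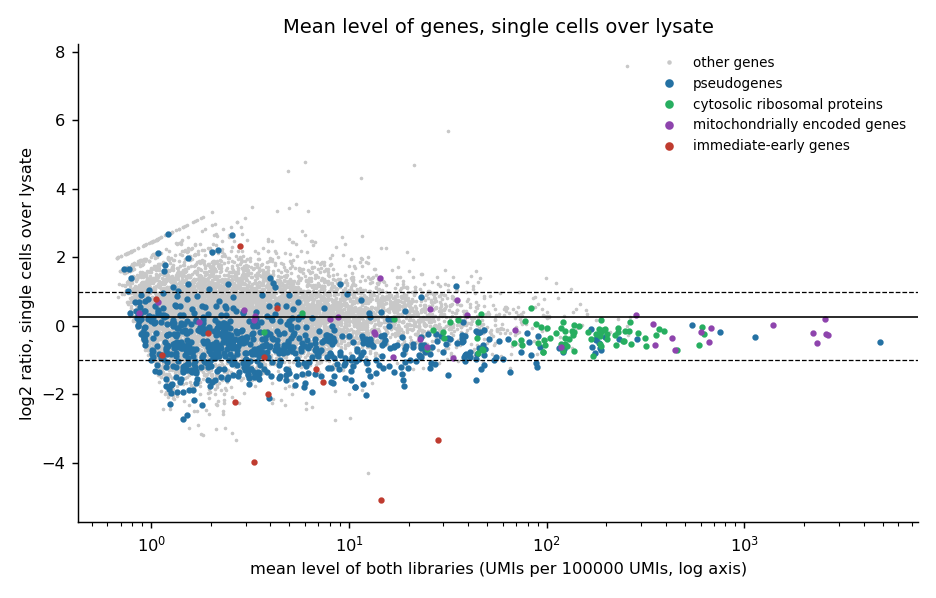
Log2 ratio of the mean level of each compared gene, single cells over lysate, against its mean level in both libraries (UMIs per 100000 UMIs, log axis), where each point is 1 gene, the solid line is the median of 0.27 and the dashed lines mark 2-fold. Pseudogenes (blue) and ribosomal protein genes (green) lie mostly under the median, and EGR1 is the lowest point at -5.10.

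Of the genes that averaged 5 UMIs or more per well, EGR1 stood furthest towards the lysate, and other immediate-early genes were also high there. EGR1 encodes a zinc-finger transcription factor that growth factors and stress induce, and it lies on chr5:138465479-138469303 (GRCh38, GENCODE 44). The 10 single cells held 0 to 2 UMIs of EGR1 and the 10 lysate wells 12 to 39. Its level ran from 0 over a median of 0 to 1.21 in cells and from 18.3 over 27 to 48.3 in lysate, with a log2 ratio of -5.10. Over the libraries the lysate level was 68.4 times that in cells, with a counting interval of 31.0 to 188 at the 95% level. The ERCC-mix cells reached 1.99 at most and the RNA wells held none, so the EGR1 signal stood in the lysate and not in the other 3 LAST-seq libraries beyond a few UMIs. Such intervals cover counting error only.

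JUN and FOS code for the subunits of the AP-1 transcription factor, and FOSB for a relative of FOS. JUN ran from 1.57 over 3.62 to 12.9 in cells and from 41.1 over 52.0 to 59.4 in lysate, a log2 ratio of -3.34, and lay at 6.12 to 16.2 in the ERCC-mix cells. FOS ran from 0 over 3.13 to 5.73 in cells and from 8 over 11 to 18.0 in lysate, a log2 ratio of -1.65. FOSB had no UMI in any single cell or ERCC-mix cell and ran from 1.51 over 7.03 to 12.3 in lysate, at least 32.1-fold higher when the cell library is set at a floor of 3 UMIs. For these genes and EGR1 no cell reached the lowest lysate well. IER2, a small nuclear early-response protein, was also apart, at 0 to 3.63 in cells and 4.52 to 10.2 in lysate. Of the 13 immediate-early genes compared, 1 was past 2-fold higher in cells and 7 lower, and 5 did not overlap and were lower. Over all genes these shares were 17.7%, 6.29% and 1.39%. EGR1 and FOSB were near or at 0 in cells and passed the filter through the lysate alone, so their calls as lower followed from it. Of all 8654 genes, 187 passed with a mean under 1 UMI in cells. The counts were not repeated without such members. The median log2 ratio was -1.25, and over the same lysate it was -1.28 for the ERCC-mix cells and -1.27 for the RNA wells. KLF6 went the other way, at 1.29 to 11.5 in cells and 0 to 2.74 in lysate, with a log2 ratio of 2.34.

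Immediate-early promoters are known for elements that respond to cyclic AMP and serum signals, and those of EGR1, FOS, FOSB and JUN are shown to let these be seen. Each line gives the 250 bases before the RefSeq gene start on the gene's own strand (GRCh38.p14): EGR1 at chr5:138465229-138465478 (+), FOS at chr14:75278578-75278827 (+), FOSB at chr19:45467746-45467995 (+) and JUN at chr1:58784048-58784297 (-). Capitals mark TGACGT on either strand, the core of a cyclic AMP response element, the AP-1 like site TGACATCA, and CArG boxes, the sites of serum response factor.
EGR1: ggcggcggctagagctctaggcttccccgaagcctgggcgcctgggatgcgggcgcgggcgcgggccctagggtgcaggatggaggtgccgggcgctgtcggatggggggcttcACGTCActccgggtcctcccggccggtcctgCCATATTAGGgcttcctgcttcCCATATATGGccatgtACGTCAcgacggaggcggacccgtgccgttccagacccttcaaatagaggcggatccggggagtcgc
FOS: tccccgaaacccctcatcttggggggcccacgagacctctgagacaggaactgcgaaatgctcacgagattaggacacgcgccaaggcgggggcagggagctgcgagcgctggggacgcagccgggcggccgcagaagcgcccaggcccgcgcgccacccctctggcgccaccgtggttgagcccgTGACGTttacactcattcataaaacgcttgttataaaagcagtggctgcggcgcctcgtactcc
FOSB: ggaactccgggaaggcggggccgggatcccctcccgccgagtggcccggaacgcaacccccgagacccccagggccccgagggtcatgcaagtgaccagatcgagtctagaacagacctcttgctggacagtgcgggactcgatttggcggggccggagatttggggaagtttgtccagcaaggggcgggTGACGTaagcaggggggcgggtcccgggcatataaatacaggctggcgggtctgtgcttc
JUN: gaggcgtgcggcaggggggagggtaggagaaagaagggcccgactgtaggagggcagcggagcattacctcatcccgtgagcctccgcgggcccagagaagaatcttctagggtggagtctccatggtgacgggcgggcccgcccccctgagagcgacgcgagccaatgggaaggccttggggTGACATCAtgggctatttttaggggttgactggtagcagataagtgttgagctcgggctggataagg
TGACGT was present in the 250 bases before the start in 5 of the 10 immediate-early genes with a RefSeq promoter, in 11.7% of the promoters of the compared genes and in 7.42% of all promoters. TGACATCA was in 3 of the 10 and in 0.966% of the compared genes, and a CArG box in 2 of the 10 and in 1.01%. A match is a description of these letters and no evidence of binding.

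In CEL-seq2, which amplifies after reverse transcription, the lysate lay beside or between the cell libraries for these genes. EGR1 had a mean level of 38.0 and 0.810 in its 2 single-cell libraries and 39.1 in its lysate. JUN stood at 76.5 and 24.7 in cells and at 33.6 in lysate, and FOS at 31.5 and 0.268 in cells and 5.33 in lysate. FOSB stood at 28.3 and 0.183 in cells and 8.62 in lysate, so the CEL-seq2 cell libraries differed from each other in all 4 genes.

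The other stress lists had medians nearer to 0 than that of the immediate-early genes, although single members stood far out. Of 16 genes of the ATF4 stress response 1 was past 2-fold higher and 4 lower, with a median log2 ratio of -0.31. ATF4 itself, the transcription factor of amino-acid and endoplasmic reticulum stress, ran from 19 over 31.9 to 43.5 in cells and from 51.3 over 65.5 to 81.9 in lysate, but the ERCC-mix cells had a median of 51.2. DDIT3, a target of ATF4, ran from 0 to 1.21 in cells and from 1.23 to 6.46 in lysate. CDKN1A, the p53 target that blocks cyclin-dependent kinases, had no UMI in the single cells and 1.23 to 6.83 in lysate, at least 16.7-fold higher, but its median was 1.73 in the ERCC-mix cells. Of the 13 p53 genes 1 (7.69%) was higher and 2 (15.4%) lower, against 17.7% and 6.29% of all genes, with a median of 0.21. CDKN1A passed the filter through the lysate alone.

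**Figure D2:**
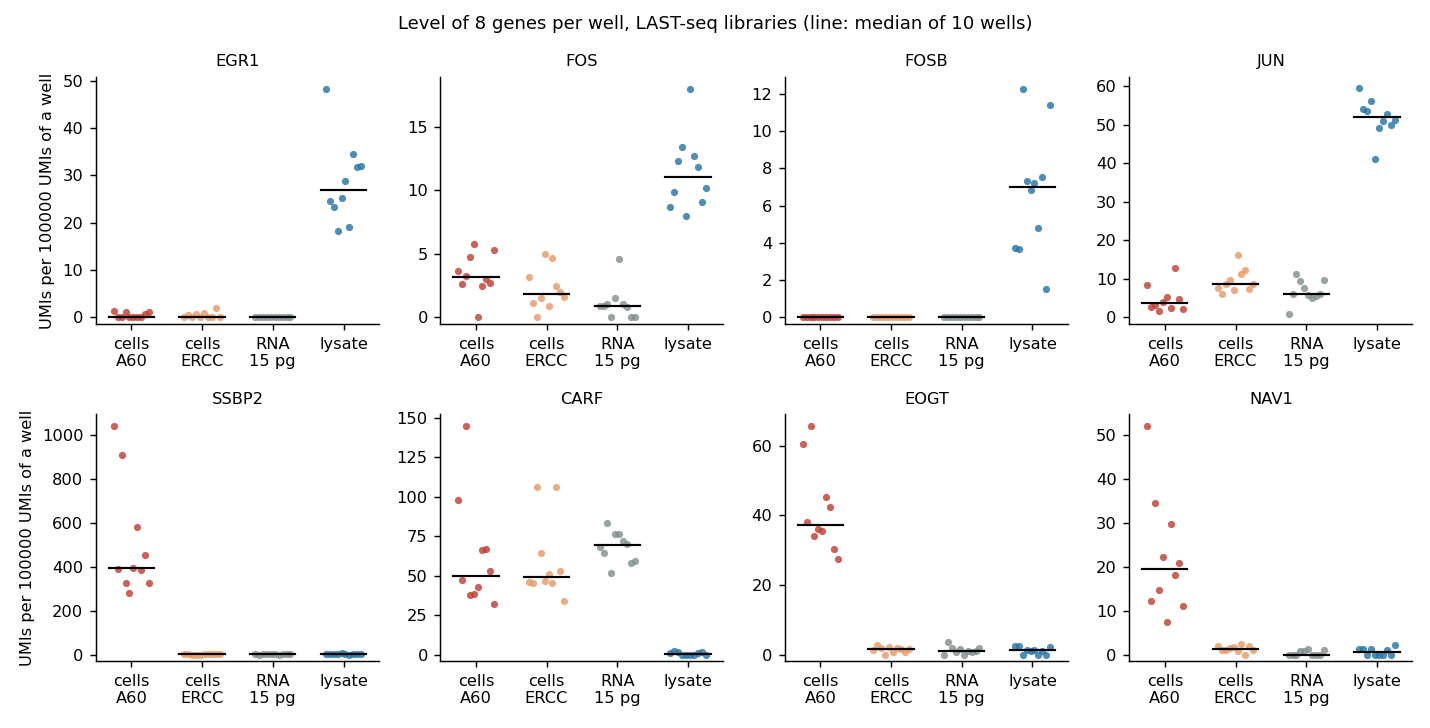
Level of 8 genes in each well of the 4 LAST-seq libraries (UMIs per 100000 UMIs of a well), where each point is 1 well and the line is the median of 10 wells. EGR1, FOS, FOSB and JUN are high in the lysate, while SSBP2, EOGT and NAV1 are high in the single cells with the A60 mix and near 0 in the other 3 libraries.

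Genes outside the lists lay among those furthest towards the lysate as well, some beyond JUN and FOS. FKBP15, which encodes a protein of the FK506-binding family, ran from 0 over 0.848 to 2.23 in cells and from 10.2 over 24.0 to 37.7 in lysate, a log2 ratio of -4.29. PKD2, the polycystin-2 channel of kidney epithelium, ran from 0 over 2.02 to 4.03 in cells and from 8 over 14.2 to 24.7 in lysate, a log2 ratio of -2.75. NSMCE1, a subunit of the SMC5/6 complex, was at 0.527 to 6.45 in cells and at 8.22 to 24.5 in lysate. LINC02746, PCED1A and C5orf63 followed with log2 ratios of -2.69, -2.38 and -2.25. PCED1A was high in the RNA wells as well, with a median of 9.29 against 1.72 in cells.

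The genes furthest towards the cells fell into 2 kinds, those also seen in the ERCC-mix cells and those seen in the A60-mix cells alone. SSBP2, a single-stranded DNA-binding transcription cofactor on chr5:81412804-81751797, ran from 281 over 392 to 1040 in cells and from 0 over 2.21 to 5.71 in lysate, and the library ratio was 201 with an interval of 127 to 340. In the ERCC-mix cells it reached only 3.34. EOGT, an O-GlcNAc transferase of secreted proteins, ran from 27.4 over 37.1 to 65.7 in cells, from 0 over 1.17 to 2.47 in lysate and up to 2.78 in the ERCC-mix cells. NAV1, a neuron navigator protein, ran from 7.42 over 19.5 to 52.1 in cells and reached 2.28 in lysate. FRMPD1 and PLXNA4, a plexin receptor, had no UMI in the lysate or the ERCC-mix cells. They ran from 7.37 to 16.9 and from 4.45 to 24.2 in cells, which is at least 30.6-fold and 23.9-fold higher than the lysate floor. In all, 6 genes were past 10-fold between the single cells and the ERCC-mix cells, SSBP2, FRMPD1, PLXNA4, EOGT, NAV1 and the pseudogene MTND4P12, and a difference of these genes between A60-mix cells and lysate is also a difference between the cell libraries.

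The UMIs of SSBP2 did not follow the size of the well. Across the 10 cells the correlation of its UMIs with the gene UMIs of the well was -0.69, and for CARF it was -0.629, while the median over 2192 genes was 0.80. The total includes the gene and the points are 10 wells of 1 library, so the values describe that library. EOGT stood at 0.272, FRMPD1 at 0.444, NAV1 at -0.342 and PLXNA4 at -0.121. The summed spike-ins, added in equal amount to each well, had a correlation of 0.831.

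CARF, a calcium-responsive transcription factor, was of the other kind. It ran from 32.2 over 50 to 145 in cells and from 33.7 over 49.0 to 106 in the ERCC-mix cells, against 0 over 0.538 to 2.45 in lysate. The RNA wells held 51.5 to 83.5, so the lysate was the low library among the 4. Its level in CEL-seq2 was 0.287 and 0.397 in cells and 0 in lysate. CAMKK2, a kinase that activates AMPK, ran from 5.81 over 8.63 to 16.7 in cells and reached 1.24 in lysate, with a median of 6.94 in the ERCC-mix cells. LIN7C, a scaffold protein of cell junctions, ran from 8.16 over 11.5 to 14.7 in cells and reached 1.37 in lysate, with 8.35 in the ERCC-mix cells. RABL2B, which has the near-identical paralog RABL2A and is uncertain for that reason, had 3 UMIs in the whole lysate library, and its library ratio of 21.7 had an interval of 7.23 to 107. SKIC3, a part of the complex that feeds mRNA to the exosome, ran from 5.65 to 13.4 in cells and reached 2.40 in lysate, but its median in the ERCC-mix cells was 1.38.

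Ribosomal protein mRNAs took a smaller share of the cells. The 79 cytosolic ribosomal protein genes compared held 10.5% to 12.7% of the UMIs of a cell, with a median of 11.9%, and 13.8% to 14.7% of those of a lysate well, with a median of 14.5%. None of the 79 was past 2-fold in either direction, the median log2 ratio was -0.25, and 76 lay below the median of all genes. The wells of 19 did not overlap and were lower in cells, and of 0 higher, against 1.39% and 2.85% of all genes. The spread over members was wide. RPL11 of the large subunit ran from 576 over 600 to 657 in cells and from 572 over 605 to 662 in lysate, a log2 ratio of -0.02. RPS4X of the small subunit ran from 500 over 574 to 619 and from 603 over 674 to 733, a log2 ratio of -0.24. RPS3A stood furthest down at 90.5 over 129 to 132 in cells and 159 over 222 to 272 in lysate, a log2 ratio of -0.89. The median of the ERCC-mix cells over the same lysate was -0.26.

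Most ribosomal protein mRNAs share a 5' terminal run of pyrimidines, through which their translation is controlled. The windows from 10 bases before to 20 bases from the RefSeq start of 4 of them are shown on the gene's strand because they include the members named above and in the part on spread (GRCh38.p14), RPL3 at chr22:39319604-39319633 (-), RPL11 at chr1:23691769-23691798 (+), RPS4X at chrX:72277229-72277258 (-) and RPS3A at chr4:151099618-151099647 (+). Capitals mark runs of at least 5 pyrimidines.
RPL3: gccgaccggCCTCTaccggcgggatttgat
RPL11: cctggcccataaggCCCTCggccggaagct
RPS4X: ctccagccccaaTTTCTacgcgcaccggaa
RPS3A: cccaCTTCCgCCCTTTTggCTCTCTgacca
A marked run anywhere in this window was found for 61 of the 63 ribosomal protein genes with a RefSeq promoter (96.8%). It was found for 45.6% of the compared genes and for 48.5% of all promoters. A run counted so need not stand at the 5' end of the mRNA. Within 5 bases of the start, a C followed by at least 4 pyrimidines was found for 46 of the 63 (73.0%). This held for 14.6% of the compared genes and 12.6% of all promoters.

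The pseudogenes of ribosomal proteins stood further down than their parents. Of 319 compared, 1 was past 2-fold higher in cells and 94 (29.5%, against 6.29% of all genes) were lower, with a median log2 ratio of -0.65. Together they held 2.91% to 4.09% of a cell and 5.22% to 5.96% of a lysate well. The wells of 27 did not overlap and were lower, against 1.39% of all genes. RPS15P4, a copy with many UMIs, ran from 226 over 242 to 287 in cells and from 297 over 322 to 350 in lysate. RPS29P16 ran from 2.42 over 4.27 to 9.68 and from 11 over 18.9 to 29.7, a log2 ratio of -2.02. The median over the same lysate was -0.62 for the ERCC-mix cells.

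**Figure D3:**
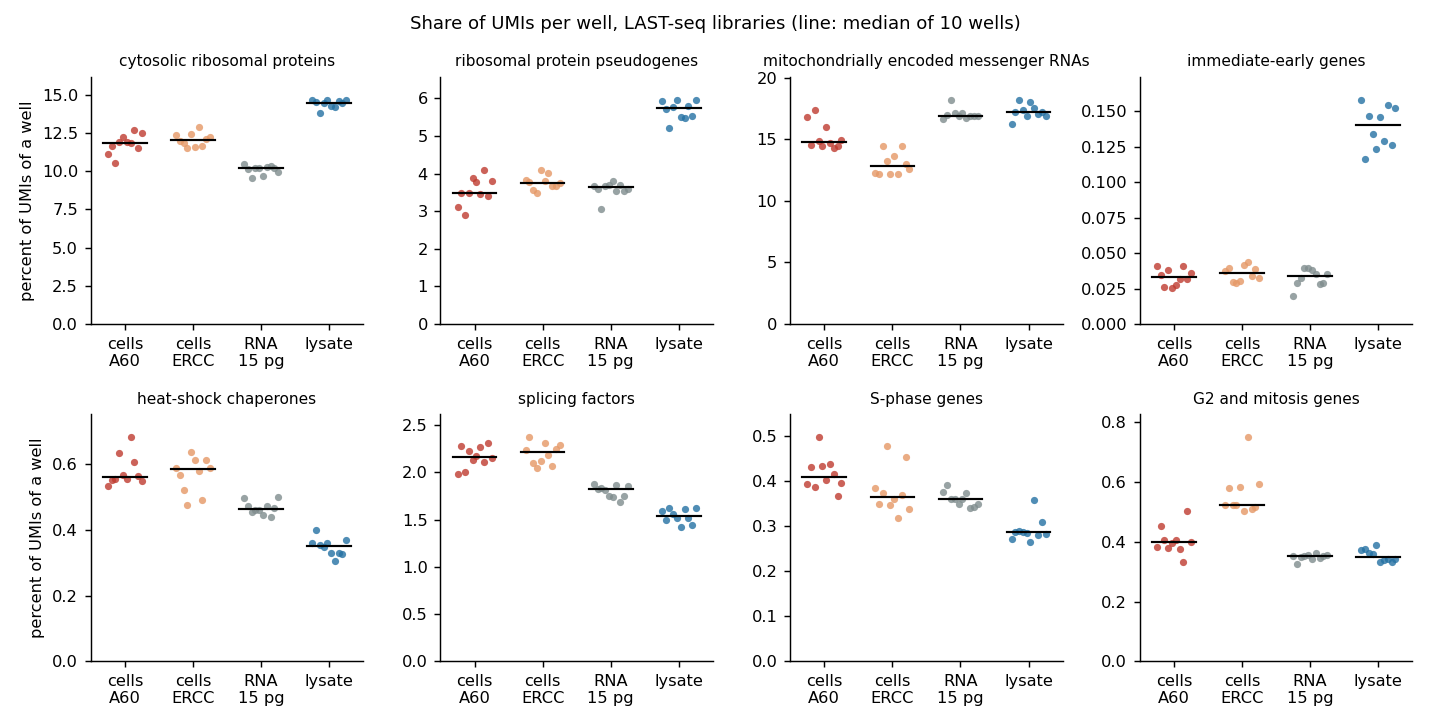
Share of the UMIs of a well held by 8 gene lists in the 4 LAST-seq libraries, where each point is 1 well, the line is the median of 10 wells and every axis starts at 0. The lysate is highest in ribosomal protein genes, their pseudogenes and immediate-early genes and lowest in heat-shock chaperones, splicing factors and S-phase genes by its median.

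Mitochondrial mRNAs overlapped between the A60-mix cells and the lysate. The 13 mRNAs of the mitochondrial genome code for subunits of the respiratory chain. They held 14.3% over 14.8% to 17.4% in cells and 16.2% over 17.2% to 18.2% in lysate. The ERCC-mix cells, at 12.2% over 12.8% to 14.5%, all lay below the lysate, and the RNA wells held 16.6% to 18.2%. Between the A60-mix cells and the lysate no member was past 2-fold, and the median log2 ratio was -0.18. Of the members, 4 did not overlap and were lower, against 1.39% of all genes. The median was -0.39 for the ERCC-mix cells over the same lysate. For CEL-seq2 cells over CEL-seq2 lysate it was -0.90, against 0.42 of all genes. MT-CO3, of cytochrome c oxidase, ran from 1840 over 1940 to 2060 in cells and from 2600 over 2720 to 2860 in lysate, a log2 ratio of -0.50. MT-ATP6, of ATP synthase, ran from 2180 over 2390 to 2750 and from 2770 over 2870 to 3080. MT-ND4, of complex I, had a ratio of 0.19 on the log2 scale and MT-ND2 one of -0.71. The mitochondrial ribosomal and transfer RNAs held 1.40% to 1.71% in cells and 1.80% to 2.10% in lysate, with MT-TD, the aspartate tRNA, past 2-fold higher in cells at 16.8 to 27.3 against 4.11 to 12.6. The 81 nuclear-encoded genes of the respiratory chain were at 2.62% to 2.80% in cells and 2.98% to 3.23% in lysate. UQCRH, a small subunit of complex III, ran from 86.6 over 106 to 113 and from 127 over 157 to 172, a log2 ratio of -0.58.

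Splicing factors and chaperones had median ratios above that of all genes, 0.27. The 46 splicing factors held 1.99% to 2.31% of a cell and 1.42% to 1.63% of a lysate well. Of these, 9 (19.6%, against 17.7% of all genes) were past 2-fold higher and 0 were lower (against 6.29%), with a median log2 ratio of 0.44, so the share past 2-fold higher was near that of all genes. The wells of 11 did not overlap and were higher, against 2.85% of all genes. HNRNPM, an mRNA-binding protein of the nucleus, ran from 132 over 142 to 171 in cells and from 38.4 over 55.7 to 66.7 in lysate, a log2 ratio of 1.41. HNRNPA2B1, the member with many UMIs, ran from 161 over 181 to 207 and from 115 over 134 to 153, a log2 ratio of 0.46. SON, a protein of nuclear speckles, had a log2 ratio of 1.43, and SRSF6 one of 0.17.

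The 17 heat-shock chaperones held 0.533% over 0.560% to 0.682% in cells and 0.306% over 0.351% to 0.399% in lysate. Of these, 5 (29.4%, against 17.7% of all genes) were past 2-fold higher and 0 lower (against 6.29%). Their median log2 ratio of 0.88 was the highest of the lists with 10 or more genes. Over the same lysate it was 0.83 for the ERCC-mix cells and 0.52 for the RNA wells. For CEL-seq2 cells over CEL-seq2 lysate it was 0.34, under the 0.42 of all genes. HSP90AA1, the inducible HSP90, ran from 125 over 144 to 210 in cells and from 49.8 over 60.2 to 92.0 in lysate. HSPH1, an exchange factor of HSP70, ran from 12.1 over 17.4 to 23.7 and from 1.22 over 5.87 to 11, and HSPD1, the mitochondrial chaperonin, had a log2 ratio of 0.88. The immediate-early and heat-shock lists, both of stress-inducible genes, thus lay on opposite sides of the median.

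Other housekeeping lists gave moderate ratios. The 35 translation factors had a median log2 ratio of 0.47, with 4 (11.4%, under the 17.7% of all genes) past 2-fold higher and 0 lower. EIF5, which triggers GTP hydrolysis at the start codon, ran from 19.3 to 38.8 in cells and from 4.88 to 12.4 in lysate. The median of the list was 0.27 in the ERCC-mix cells over the same lysate. Medians were 0.33 for 72 mitochondrial ribosomal proteins, 0.25 for 35 proteasome subunits, 0.21 for 8 subunits of the TRiC chaperonin, 0.36 for 34 genes of the endoplasmic reticulum, 0.14 for 19 tRNA synthetases and 0.05 for 15 genes of glycolysis. The cytoskeleton list had a median of 0.36 over 27 genes, and ACTB, cytoplasmic beta-actin, ran from 29.9 over 34.5 to 65.2 in cells and from 12 over 20.5 to 27.3 in lysate. Cholesterol genes had -0.16 over 18 genes with 3 (16.7%, against 6.29% of all genes) lower, HMGCS1 among them at -1.51. Extracellular matrix and integrin genes had -0.26 over 9, and interferon-stimulated genes -0.22 over 10, with IFITM3 at -1.32 and IFIT5 at 2.02. Both metallothioneins compared were within 2-fold.

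Among regulators of transcription, 34 Mediator and RNA polymerase II genes had a median log2 ratio of 0.25 with 6 (17.6%) higher and 2 (5.88%) lower, near the values of all genes. The 53 zinc-finger genes of chromosome 19 had one of 0.48 with 15 (28.3%, against 17.7% of all genes) higher and 4 (7.55%, against 6.29%) lower. Over the same lysate, however, the ERCC-mix cells had a median of only 0.09. ZNF383 and ZNF761 had no UMI in the lysate and passed the filter through the cells alone. Nuclear and regulatory long noncoding RNAs, a list that is not limited to nuclear ones, held 0.0588% to 0.0782% in cells and 0.0384% to 0.0535% in lysate. Of its members DANCR stood at 17.4 to 28.4 against 6.19 to 16.8, and NORAD at a log2 ratio of 0.82. Host genes of small nucleolar RNAs were on the other side at 0.224% to 0.255% and 0.261% to 0.336%, with SNHG5 at 28.1 to 47.2 in cells and 56.1 to 81.8 in lysate. Of 6 small nuclear and nucleolar RNAs 2 were higher and 2 lower.

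The lists of cell-cycle phases gave the following values. The 36 S-phase genes held 0.367% over 0.408% to 0.497% of a cell and 0.264% over 0.286% to 0.357% of a lysate well, with 4 (11.1%, under the 17.7% of all genes) past 2-fold higher, 0 lower and a median log2 ratio of 0.45. PCNA, the clamp of DNA polymerase, ran from 30.2 over 38.8 to 46.0 in cells and from 18.2 over 24.8 to 33.2 in lysate, which overlap, and UHRF1, which maintains DNA methylation, had a log2 ratio of 1.92. The 54 genes of G2 and mitosis held 0.332% over 0.399% to 0.502% in cells and 0.332% over 0.350% to 0.391% in lysate, with a median of 0.09. In the ERCC-mix cells they held 0.502% to 0.751%, so the cell libraries differed in this list. CKAP5, a microtubule polymerase, ran from 8.90 over 16.1 to 27.8 and from 1.14 over 3.70 to 6.86, and KIF11, the spindle kinesin, had a log2 ratio of 1.79. The 16 genes of G1 cyclins and RB-E2F had a median of 0.13, with RB1 at 2.19, and 8 replacement histones one of 0.36. Only 2 replication-dependent histones, whose mRNAs lack a poly-A tail, passed the filter.

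Transcript length went with the ratio. The protein-coding genes were put in 5 bins by the exonic length of the canonical transcript. In the shortest bin, 276 to 1795 bases, the median log2 ratio was 0.11 and 9.01% of genes were past 2-fold higher in cells. In the longest, 5881 to 34630 bases, the values were 0.45 and 24.5%. The bins between had medians of 0.34, 0.37 and 0.50. Among the most abundant of 3 equal groups by level, the shortest bin had a median of 0.06 and the longest 0.57. For the ERCC-mix cells over the same lysate the medians ran from 0.14 to 0.49, for the RNA wells from 0.21 to 0.24, and for CEL-seq2 cells over CEL-seq2 lysate from 0.05 to 0.84. Over 7655 protein-coding genes Spearman's rho of the ratio was 0.15 with length and -0.0467 with GC content, a description across genes that share libraries. By GC content the bins ran from 0.40 in the lowest to 0.31 in the highest, and for the RNA wells from 0.12 to 0.53. Ribosomal protein and respiratory chain mRNAs are short and splicing factor mRNAs are longer, and the part of length in the list values was not tested.

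**Figure D4:**
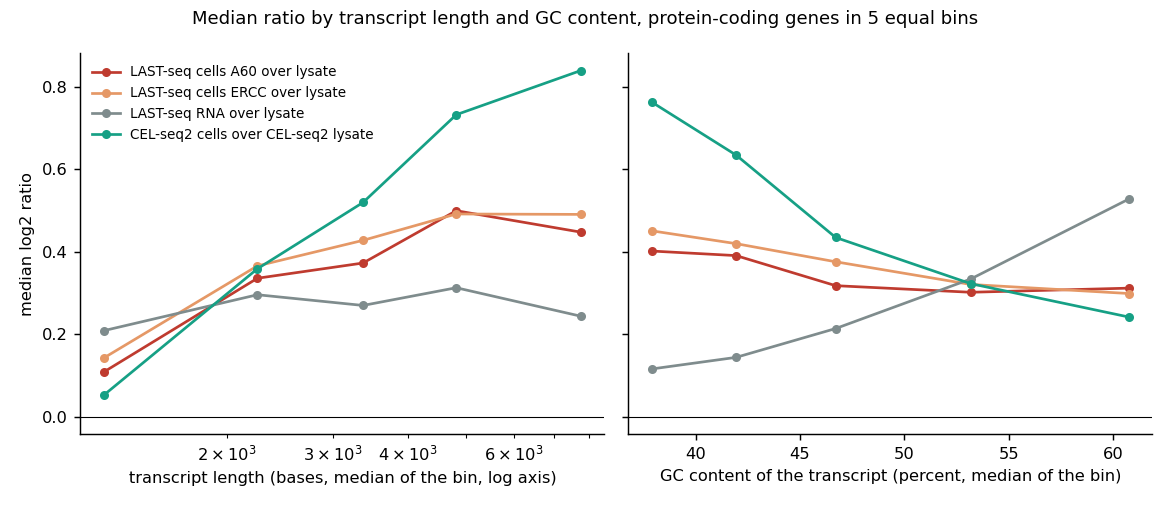
Median log2 ratio of protein-coding genes in 5 equal bins of transcript length (left, log axis) and GC content (right) for 4 comparisons, where each point is a bin at its median length or GC percent. The ratio of LAST-seq single cells to lysate runs from 0.11 in the shortest bin to 0.45 in the longest, and that of the RNA wells runs from 0.12 to 0.53 with GC content.

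Spread was compared next. The total of a cell ranged 2.31-fold from lowest to highest, with a coefficient of variation (CV, SD over mean) of 26.0%, and that of a lysate well 1.48-fold, with a CV of 12.1%. To look at genes apart from totals, wells were thinned to 62000 UMIs, and the 1389 genes averaging 5 UMIs or more per thinned well in both libraries were compared. The CV was past 2-fold higher in cells for 67 genes (4.82%) and past 2-fold lower for 52 (3.74%), with a median log2 ratio of CVs of 0.00. The median CV was 0.282 in cells and 0.292 in lysate. At these levels most of the spread of single genes was counting noise. The median variance over mean, which is 1 for counting noise alone, was 1.11 in cells, 1.03 in lysate, 1.11 in the ERCC-mix cells and 0.972 in the RNA wells. A variance of at least 2 times the mean was found for 174 genes in cells and 113 in lysate, and for 185 in the ERCC-mix cells and 82 in the RNA wells. The excess was larger in abundant genes, which were mostly of a few classes. For the 71 genes with at least 100 UMIs the median was 1.94 in cells and 1.36 in lysate, and for the 544 with 5 to 10 UMIs it was 1.01 and 0.998. Of these 71, 34 were ribosomal protein genes, 14 mitochondrial genes and 15 pseudogenes. The 8 other nuclear genes at this level had a median of 1.21 in cells and 1.26 in lysate. Whether the excess goes with level or with class was not tested.

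Classes differ in level, so their spread is given over all members and at matched levels. For the 77 cytosolic ribosomal protein genes compared in spread the median variance over mean was 1.66 in cells and 1.16 in lysate, with 52 (67.5%) above the lysate. For the 1148 nuclear genes outside the ribosomal protein, mitochondrial and pseudogene classes it was 1.05 and 1.0, with 52.7% above. At 50 to 100 UMIs the values came close, at 1.49 in cells and 1.27 in lysate for 26 ribosomal protein genes (65.4% above) and at 1.41 and 0.947 for 37 other nuclear genes (73.0% above). For the 14 mitochondrial genes of at least 100 UMIs it was 4.50 and 2.05, with 12 of the 14 (85.7%) above. Of all 71 genes at this level 52 (73.2%) were above, so the share of mitochondrial genes was not far from it. Pseudogenes had 1.45 and 1.22 over 137 genes. The ERCC-mix cells had 1.18 for these genes, so the excess over the lysate was not seen there.

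Summed UMIs of a list varied more between cells than between lysate wells for some lists and not for others. Summed over the 13 mitochondrial mRNAs, thinned UMIs had a CV of 7.42% in cells and 3.44% in lysate, and a variance over mean of 51.8 and 12.6, beside 40.3 in the ERCC-mix cells and 8.11 in the RNA wells. The cells at 16.8% and 17.4% of mitochondrial mRNA were the shallowest ones, of 82596 and 92795 UMIs. The well index of the cell at 17.4% also had the highest mitochondrial share in the other LAST-seq libraries. It held 18.2% in lysate, 14.5% in the ERCC-mix cells and 18.2% in the RNA wells. Its ribosomal protein share was the lowest in cells (10.5%) and in lysate (13.8%). The part of the index in the spread of these lists was not tested. Ribosomal protein mRNAs summed to a CV of 5.51% in cells and 1.91% in lysate, with a variance over mean of 22.1 and 3.26, and 9.79 in the ERCC-mix cells. Their pseudogenes had 10.2% and 4.55%, but 5.1% in the ERCC-mix cells and 5.23% in the RNA wells, both near the lysate. Genes of G2 and mitosis had a CV of 12.5% in cells and 6.12% in lysate, with a variance over mean of 3.94 and 0.832, and 8.57 in the ERCC-mix cells and 0.141 in the RNA wells. The S-phase genes gave 1.87 in cells, 1.44 in lysate and 4.94 in the ERCC-mix cells. Proteasome subunits gave 3.61 and 0.856, and genes of the endoplasmic reticulum 3.17 and 0.590. Splicing factors showed no such gap, at 2.71 in cells and 2.76 in lysate. The CV of the sum was also about equal or lower in the A60-mix cells for the nuclear respiratory chain (2.63% and 2.78%), mitochondrial ribosomal proteins (4.34% and 4.71%), glycolysis (4.98% and 5.05%), S-phase genes (8.64% and 8.86%) and cholesterol genes (9.52% and 11.8%). Heat-shock chaperones stood at 8.30% and 7.95%. The ERCC-mix cells were above the lysate for the respiratory chain (3.53%), glycolysis (6.34%), S-phase genes (14.5%), cholesterol genes (14.0%) and heat-shock chaperones (10.4%). For mitochondrial ribosomal proteins they had 4.67%. The cell libraries thus differed in the spread of most of these lists.

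By single members, the median log2 ratio of CVs was 0.78 for mitochondrial mRNAs, with 6 of 13 past 2-fold higher in cells and 0 lower, and 0.62 for the ERCC-mix cells over the same lysate. It was 0.43 for ribosomal proteins, with 9 of 77 higher and 1 lower, and 0.45 for their pseudogenes, with 10 of 77 higher and 0 lower. For the ERCC-mix cells over the same lysate these medians were 0.37 and 0.24. Over all genes compared in spread 4.82% were past 2-fold higher in CV and 3.74% lower. The median was 0.20 for 62 genes of the nuclear respiratory chain, -0.26 for 40 splicing factors, -0.39 for 11 heat-shock chaperones and -0.49 for 10 genes of glycolysis. For the ERCC-mix cells over the same lysate the values were, in this order, 0.12, -0.18, 0.02 and -0.12.

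**Figure D5:**
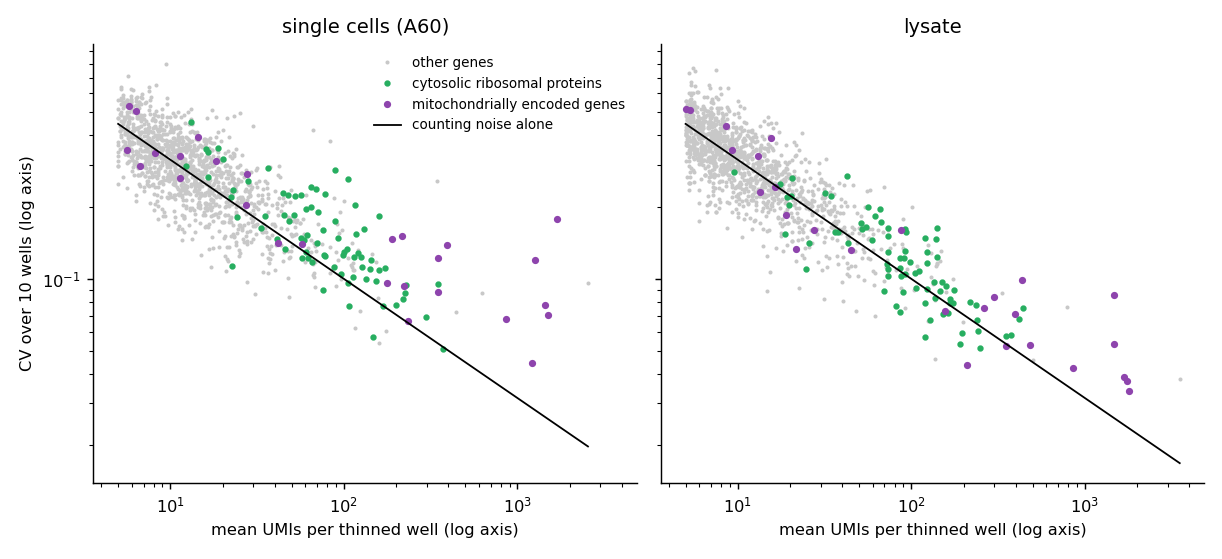
CV of each compared gene over the 10 wells of a library against its mean UMIs per thinned well (both log axes), for single cells (left) and lysate (right), where each point is 1 gene and the line is counting noise alone. Mitochondrial (purple) and ribosomal protein genes (green) lie further above the line in cells than in lysate by their medians. In variance over mean these are 1.94 against 1.42 and 1.66 against 1.16.

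Single genes at the ends of this ranking rest on few molecules and on the random draw of the thinning. With another draw 29 of the 67 and 13 of the 52 genes remained past 2-fold. CUTA ran from 3 to 18 thinned UMIs in cells and from 13 to 18 in lysate, and its CV was 4.48 times higher in cells, or 2.66 times with all UMIs kept. MT-ND2 ran from 173 to 284 in cells and from 322 to 378 in lysate, with CVs of 0.151 and 0.0521. RPL3, of the large ribosomal subunit, ran from 45 to 97 and from 73 to 100, 2.69 times higher in CV. SOX4, a transcription factor of progenitor cells, ran from 2 to 20 in cells and from 8 to 13 in lysate, with CVs of 0.544 and 0.189, and a CV of 0.677 in the ERCC-mix cells. C19orf53 stood at 2.79 times and the pseudogenes RPS15AP12 and RPS24P8 at 3.0 and 2.94. On the other side PARP1, the DNA-break sensor, ran from 8 to 15 in cells and from 2 to 19 in lysate, with a CV 3.92 times higher in lysate. SMARCA4, the ATPase of BAF complexes, followed at 3.48 times, APRT at 3.38 and TIMM17A at 3.04.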

How the data were processed

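Numbers of UMIs per gene were analysed for the HEK293T single cells and the lysate of LAST-seq, with the other HEK293T libraries for reference. The authors deposited UMI counts per gene and well. They made fastq files with bcl2fastq 2.20 (per the submitters' processing notes), aligned reads to GRCh38 with GENCODE 33 and spike-in references, drew the same number of reads per well, kept exonic reads and merged identical UMIs, without normalization. The depth to which they subsampled is not given in the sources used here. Subsampling makes reads equal between wells and not UMIs, so the depth in UMIs still differed between libraries and set which genes passed the filter.

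Spike-in rows were removed and levels were UMIs per 100000 gene UMIs of a well. Ratios were of library means with 0.5 UMI added, which understates the change of low genes, and genes were called at 2-fold. Gene names, types, lengths and positions came from GENCODE 44 (GRCh38), which held 99.69% of the identifiers. Intervals are exact at the 95% level. The genes named were the 10 highest and the 10 lowest ratios with a mean of at least 5 UMIs, the 10 highest and 5 lowest ratios of CV, and, per list, the 2 members with the most UMIs and the 2 with the largest ratios, some given by name only and some not reported here. XIST and Y-linked genes were left out. The other members named were chosen after their values were seen. The members and lists were chosen with earlier results of these data known. Pairs of wells were checked for duplicates by their mean squared difference over counting variance, which had a median of 1.38 within cells and 1.21 within lysate, and none was a duplicate, although both libraries use the same 10 barcodes. The thinning and ratios were tested on simulated data. The scripts ran in Python 3.11.15, using numpy 2.4.6, scipy 1.17.1, pandas 2.3.3 and matplotlib 3.10.9. Count models were not fitted, as each condition is 1 library. Alternatives were other scalings, filters, pseudocounts, thinning draws, the ERCC-mix cells and leaving out each well.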

Additional observations from a re-analysis of the deposited data

Results flagged for a closer look

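Of 58 quantities per well tested for a sample far from the others, 1 stood out. The S-phase genes held 0.357% of the UMIs of the lysate well with index GTATCC, where the next well held 0.309% and the median was 0.286%. Chance alone gives such a gap in about 1 of 20 groups.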

How the results depend on the processing

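Counts of genes moved with the filter. Past 2-fold in mean, 419 genes were higher and 112 lower at a mean of at least 5 UMIs (of 3109), 914 were higher with thinned wells (of 6529), and 1115 were lower with no filter (of 17957). Past 2-fold in CV, 358 were higher and 289 lower after counting noise was subtracted, 164 were lower with all UMIs, and 31 were higher and 7 lower at a mean of at least 20 UMIs (of 309). Scaling by median-of-ratios size factors, which put the median log2 ratio of all genes at 0.16 and not 0.27, gave medians of -0.31 for mitochondrial mRNAs, -0.38 for ribosomal proteins and 0.33 for splicing factors, and 1254 genes higher and 686 lower. With the ERCC-mix cells in place of the A60-mix cells the mitochondrial median was -0.39. Of the 1529 genes higher in mean 882 (57.7%) were called again with these cells, and of the 544 lower 238 (43.8%). In CV 29 of the 67 higher and 10 of the 52 lower genes were called again. Detected genes had medians of 10570.5 in cells and 8504.5 in lysate with all UMIs, a difference of 2066, and of 5284 and 4710.5 at 2 UMIs or more. Leaving out each well in turn gave 1501 to 1584 genes higher in mean, 535 to 562 lower, 59 to 92 higher in CV and 48 to 64 lower. With size factors the median of the mitochondrial ribosomal and transfer RNAs went from 0.12 to -0.00. That of glycolysis went from 0.05 to -0.09, and that of G2 and mitosis from 0.085 to -0.035. A reversal was scored only for list medians past 2-fold. The immediate-early genes alone had such a median, and it kept its sign. No paired analysis was possible because each condition is 1 library. The depth limits single genes, as 1802 of the 8654 compared averaged under 1 UMI in a lysate well.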

Other observations

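MTND4P12, a processed pseudogene of MT-ND4 on chromosome 5, had mean levels of 550 UMIs per 100000 in the single cells, 536 in the lysate, 34.4 in the ERCC-mix cells and 30.7 in the RNA wells. Of the UMIs of MT-ND4 and MTND4P12 together, the pseudogene held 16.8% in the single cells, 18.3% in the lysate, 1.48% in the ERCC-mix cells and 1.21% in the RNA wells. In CEL-seq2 it held 35.5% and 30.3% in the 2 cell libraries and 12.6% in the lysate. The split of reads between the 2 genes thus grouped the A60-mix cells with the lysate and the ERCC-mix cells with the RNA wells, unlike the immediate-early genes, for which the lysate stood alone.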
